A study of Mus musculus with 9 samples.

Results

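The serpins are a superfamily of protease inhibitors and of relatives that no longer inhibit, and their RNA was followed here in TEC (thymic epithelial cells), which form the stroma in which T cells mature. Members were all rows of the deposited table whose symbol is Serpin, a clade letter from a to i, a number and at most 1 further letter. There were 42 such genes among 15080, of which 18 belong to clade B, 15 to clade A, 3 to clade E and 1 each to clades C, D, F, G, H and I. TEC had been sorted from young male wild-type (WT) mice 10 days after an injection into the thymus, either of recombinant amphiregulin (rAREG, 1 µg), which binds the EGF receptor, or of PBS vehicle. There were 5 rAREG libraries and 4 vehicle libraries, from mice of matched age, and bulk MARS-seq counted tagged RNA molecules (UMIs) at their 3′ ends. The labels do not tie libraries to single mice, so p-values measure only the spread between libraries, which may be technical.

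An inhibitory serpin offers a protease an exposed loop as bait. Once the loop is cut the serpin changes its fold and traps the protease for good, so each molecule works only once. Secreted members control clotting, fibrinolysis, complement and neutrophil proteases, and many are made mainly by the liver, whereas clade B members stay inside cells and guard them against leaked granule or lysosomal proteases. Medullary TEC also make RNA of proteins typical of other organs, which are shown to developing T cells as self antigens.

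The libraries held 1523246 to 2159115 UMI counts in the rAREG group and 1804171 to 2118524 in the vehicle group. Levels are given in CPM, the UMI count scaled to a common total with TMM factors, and are not divided by transcript length, since each molecule is counted at its 3′ end. All 9 TEC markers looked for (Epcam, Krt8, Krt18, Krt5, Krt14, Foxn1, Cldn3, Cldn4 and H2-Aa) were measured in every library, with summed levels of 16476 to 19947 CPM in rAREG and 15509 to 18893 CPM in vehicle. H2-Aa was the largest part of that sum, at 8569 to 11895 CPM in rAREG and 7221 to 10613 CPM in vehicle. Summed levels of markers of other cells were lower. Fibroblast markers were at 447 to 729 CPM in rAREG and 465 to 1137 CPM in vehicle, and thymocyte markers at 63.3 to 129 and 62.1 to 118 CPM. Neutrophil markers were at 653 to 1150 CPM in rAREG and 655 to 1537 CPM in vehicle, and myeloid markers at 406 to 575 and 315 to 436 CPM.

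The total of serpin RNA did not separate the groups. The 42 genes summed to 2053 ± 179 CPM in rAREG (SD, n = 5; range 1785 to 2260) and to 2051 ± 58.3 CPM in vehicle (SD, n = 4; range 2013 to 2138). A few members made up most of it: the 4 most abundant, Serpinb6a, Serpinb1a, Serpinh1 and Serpina3g, held 52.3% of the summed level, and the 8 most abundant held 71.7%. By role, intracellular inhibitors of granule proteases held 40.1%, antitrypsin and antichymotrypsin paralogs 20.3%, members that do not inhibit proteases 15.6% and inhibitors of clotting and plasminogen activation 11.6%. Of the 42 members 5 averaged over 100 CPM, 16 lay between 10 and 100 CPM, and 21 were under 10 CPM.

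**Figure D1:**
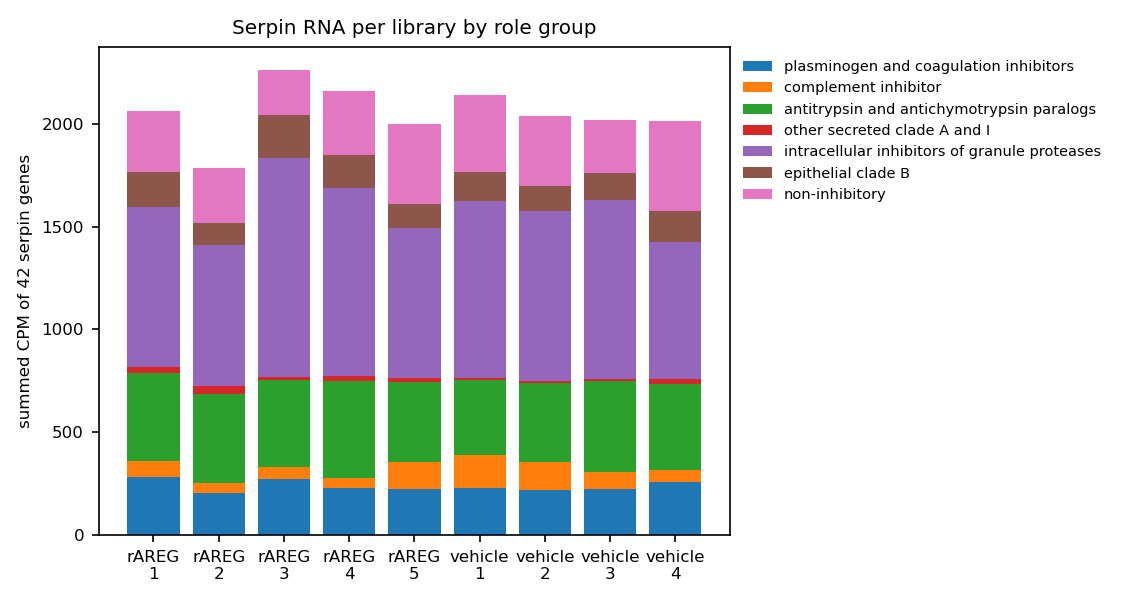
Summed CPM of the 42 serpin genes in each of the 5 rAREG and 4 vehicle libraries, stacked by role group. The total bars span 1785 to 2260 CPM in rAREG and 2013 to 2138 CPM in vehicle and overlap, and the intracellular inhibitors form the largest block in each library.

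Most members sit in 3 gene clusters (GENCODE M21, GRCm38). The clade B cluster on chromosome 13 (32842092 to 34002794) holds 9 members with 39.8% of the serpin level, most of it from Serpinb6a and Serpinb1a. The clade A cluster on chromosome 12 (103614786 to 104414329) holds 14 members with 21.8%. A second clade B cluster, on chromosome 1 (106861173 to 107610484), holds 9 members with 13.9%. Levels of neighbours ranged widely: in the chromosome 12 cluster Serpina3g averaged 141 CPM over the 9 libraries, and Serpina3b, one of its paralogs, 1.30 CPM.

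The comparison asked which serpins differed 10 days after rAREG. A filter on low counts left 26 of the 42 members to test, and 0 of them passed an adjusted p of 0.05 in edgeR's quasi-likelihood test over 11636 genes, of which 1.05% passed (0.559% higher and 0.490% lower in rAREG). At an unadjusted p of 0.05 there were 4 members, against 13.3% of all genes tested. Serpina3h and Serpina9 were on the higher side in rAREG, as were 6.82% of all genes, and Serpina3f and Serpinf1 on the lower side, as were 6.44%. DESeq2 called 1 member, Serpinf1, where 1.97% of the genes with an adjusted p were called, and limma voom called none, with 1.31% called over all genes. At an unadjusted p of 0.05 voom had 5 members and 14.8% of all genes. In the authors' deposited table, none of the 42 members and 1.11% of all genes had an adjusted p under 0.05, and 6 members and 9.05% of all genes had an unadjusted p under 0.05. Fitted log2 fold changes of the tested members were positive for 15 and negative for 11, where 49.2% of all genes were positive, with a median of 0.10 beside −0.0054 over all genes tested. Their median size was 0.168, beside 0.169 over all genes. In bulk samples, fewer cells of a type and less RNA per cell cannot be told apart.

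**Figure D2:**
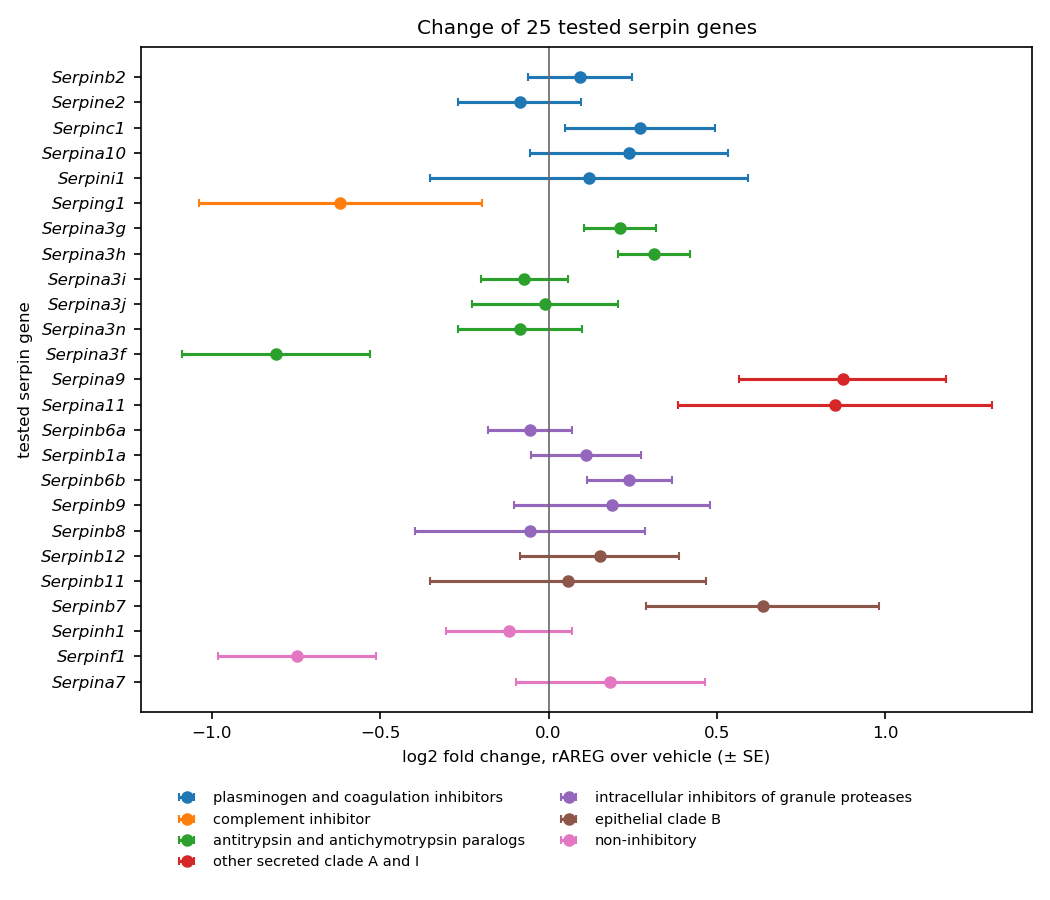
Log2 fold change of rAREG over vehicle for 25 of the 26 tested serpin genes, with bars for ± 1 SE and colours for role groups. The lowest values are those of Serpina3f at −0.81 and Serpinf1 at −0.75, the highest those of Serpina9 at 0.87 and Serpina11 at 0.85, and none passed the adjusted threshold in edgeR.

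Serpinf1 (chromosome 11, 75409769 to 75422701), which encodes the secreted anti-angiogenic factor PEDF and does not inhibit proteases, did not pass in the edgeR fit of all libraries and was called in some alternative fits. It stood at 46.4, 36.4, 47.8, 65.1 and 83.8 CPM in rAREG replicates 1 to 5, against 107, 105, 63.5 and 101 CPM in vehicle replicates 1 to 4. Vehicle replicate 3 lay below rAREG replicates 4 and 5, so the groups overlapped, while the other vehicle libraries were above every rAREG library. The means were 55.9 ± 18.7 CPM in rAREG (SD, n = 5) and 94.2 ± 20.6 CPM in vehicle (SD, n = 4), which is −0.75 ± 0.235 in log2 fold change (SE; edgeR adjusted p = 0.181). DESeq2 gave it an adjusted p of 0.0433, and edgeR without rAREG replicate 5 an adjusted p of 0.0283 at a log2 fold change of −0.93. Without any other 1 library its adjusted p in edgeR lay between 0.0683 and 0.449.

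Serping1 (chromosome 2, 84765387 to 84775444), the C1 inhibitor that holds the first complement proteases in check, spread most widely among the abundant members. Its levels were 78.1, 48.0, 55.7, 47.8 and 132 CPM in rAREG replicates 1 to 5, against 161, 138, 85.0 and 58.3 CPM in vehicle replicates 1 to 4. The groups overlapped, since rAREG replicate 5 was above 2 vehicle libraries and vehicle replicate 4 was below 2 rAREG libraries. Its log2 fold change was −0.62 ± 0.420 (SE; edgeR, adjusted p = 0.583). It was −0.379 without vehicle replicate 1 and −0.95 without rAREG replicate 5, the extremes over the fits that left out 1 library.

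Serping1 followed the summed level of the fibroblast markers across libraries. The 10 fibroblast markers, all present in the table, summed to 584, 447, 510, 466 and 729 CPM in rAREG replicates 1 to 5, against 1137, 1027, 621 and 465 CPM in vehicle replicates 1 to 4. The same 3 libraries, vehicle replicates 1 and 2 and rAREG replicate 5, were the highest for both. Over the 9 libraries Pearson's r on the log2 scale was 0.957 (two-sided exact permutation test, p = 2.2e-05, adjusted p = 0.0123 over 559 relations) and Spearman's rho was 0.917 (exact permutation p = 0.00131, adjusted p = 0.42). Without vehicle replicates 1 and 2, the libraries farthest from the median of the marker sum, r was 0.975. This relation was singled out after its values were seen, and no coefficient is given within groups of 5 and 4 libraries. Within rAREG the order of the libraries was the same for both but for replicates 2 and 4, and within vehicle the order was the same. Most of the marker sum came from Dcn, at 175 to 376 CPM in rAREG and 238 to 734 CPM in vehicle, and Col6a1. Col1a2 and Col3a1 were also highest in those 3 libraries: Col1a2 was at 42.7 CPM in rAREG replicate 5 and at 54.3 and 68.3 CPM in vehicle replicates 1 and 2, and Col3a1 at 81.2 CPM in rAREG replicate 5 and at 69.4 and 66.6 CPM in vehicle replicates 1 and 2. Pdgfra was at or under 3.30 CPM and Col1a1 at or under 4.53 CPM in every library. Of the 6 tested markers 4 had negative and 2 positive log2 fold changes, the latter being Pdgfrb (0.73 ± 0.304) and Pi16 (0.51 ± 0.389, SE). Pdgfrb was lowest in vehicle replicate 1, at 3.52 CPM, where the marker sum was highest. None of the 6 fibroblast markers tested passed (edgeR), and the part of such cells in the levels of Serping1 and Serpinf1 was not tested.

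**Figure D3:**
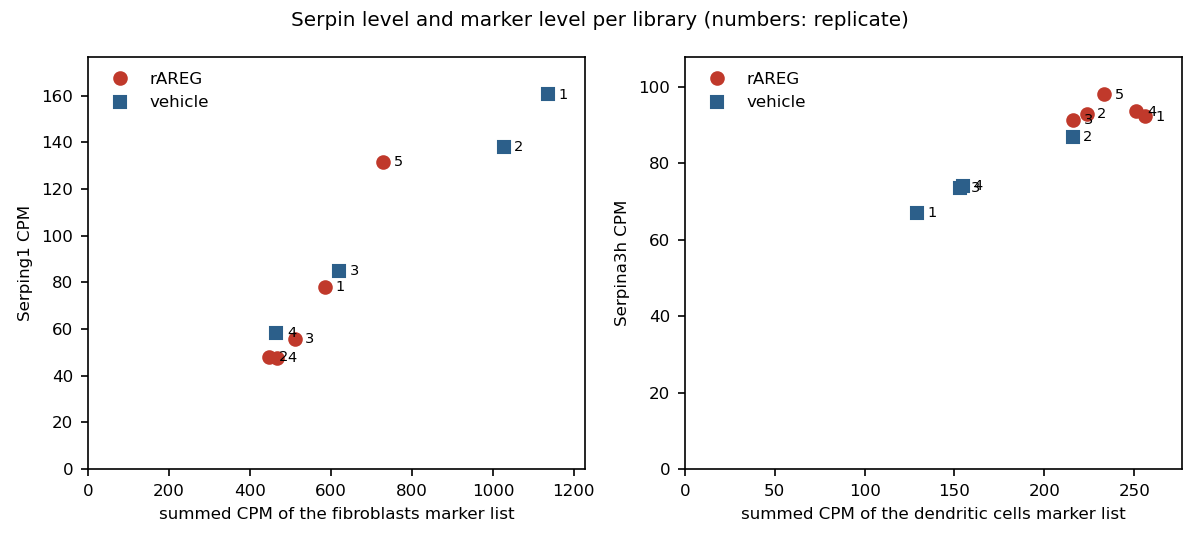
CPM of Serping1 against the summed CPM of the fibroblast markers (left) and of Serpina3h against that of the dendritic cell markers (right), with 1 point per library and replicate numbers beside it. On the left, vehicle replicates 1 and 2 and rAREG replicate 5 are the highest on both axes; on the right, vehicle replicate 1 is the lowest on both axes.

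Other members without inhibitory activity gave no call. Serpinh1 (chromosome 7, 99345376 to 99353239), the collagen chaperone HSP47, was at 237, 224, 156, 229 and 297 CPM in rAREG replicates 1 to 5, against 253, 224, 184 and 331 CPM in vehicle replicates 1 to 4. The groups overlapped over most of their range, and the log2 fold change was −0.12 ± 0.188 (SE; edgeR, adjusted p = 0.846). Serpina7, the thyroxine-binding globulin of the liver, averaged 11.7 ± 3.24 CPM in rAREG (SD, n = 5) and 10.2 ± 3.39 CPM in vehicle (SD, n = 4).

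**Figure D4:**
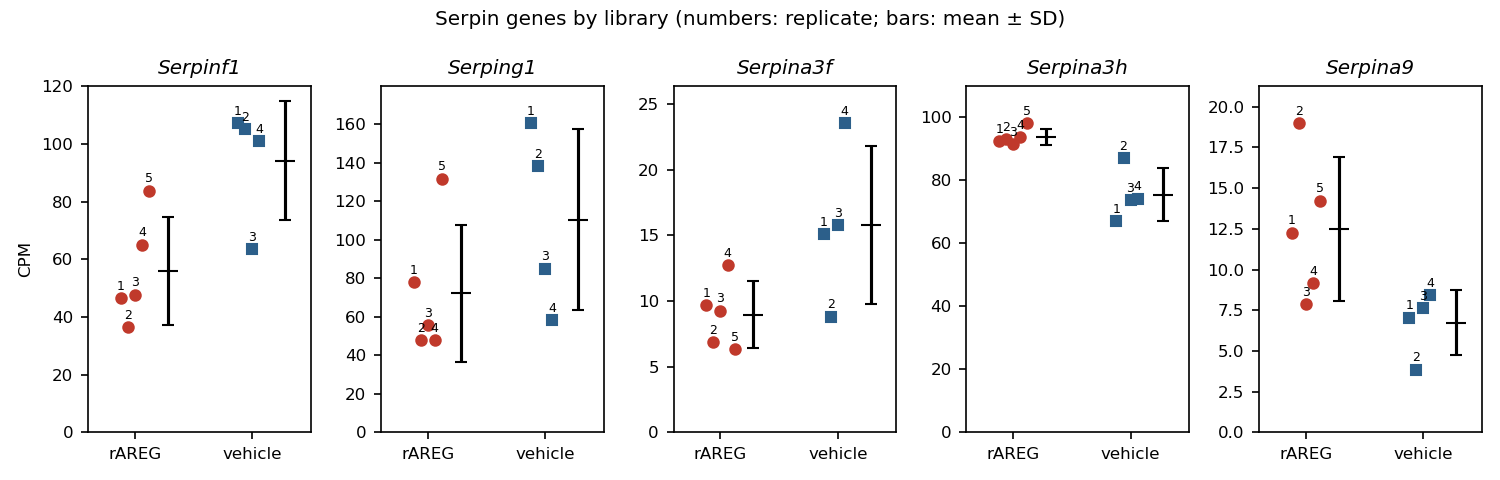
CPM per library of the serpin genes with an unadjusted p under 0.05 (Serpinf1, Serpina3f, Serpina3h and Serpina9) and of Serping1, each with 5 rAREG and 4 vehicle libraries, replicate numbers, and the mean ± SD as a bar. The groups do not overlap for Serpina3h, where rAREG libraries sit between 91.4 and 98.0 CPM and vehicle libraries between 66.9 and 87.0 CPM.

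The paralogs of human antichymotrypsin, expanded in the mouse into a row of Serpina3 genes on chromosome 12, had fitted values of both signs and no call. Of the 8 measured, 6 were tested, 3 of which are described in full. Serpina3g (104236245 to 104241939), an interferon-inducible intracellular inhibitor of serine and lysosomal cysteine proteases, was the most abundant at 154, 162, 133, 170 and 130 CPM in rAREG replicates 1 to 5, against 118, 129, 135 and 135 CPM in vehicle replicates 1 to 4. The upper rAREG libraries lay above all vehicle libraries, and rAREG replicates 3 and 5 lay among them. The log2 fold change was 0.21 ± 0.107 (SE; edgeR, adjusted p = 0.407).

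Serpina3h (104247905 to 104253669), which GENCODE annotates as a transcribed pseudogene, was the only tested member with no overlap between the groups, which 4.92% of tested genes showed. It stood at 92.2, 92.8, 91.4, 93.6 and 98.0 CPM in rAREG replicates 1 to 5, against 66.9, 87.0, 73.5 and 74.0 CPM in vehicle replicates 1 to 4. All rAREG libraries were above the highest vehicle library, replicate 2. The means were 93.6 ± 2.59 CPM in rAREG (SD, n = 5) and 75.4 ± 8.39 CPM in vehicle (SD, n = 4), and the log2 fold change was 0.31 ± 0.107 (SE; adjusted p = 0.174 in edgeR). The dendritic cell markers summed to 216 to 256 CPM in rAREG and 129 to 216 CPM in vehicle, mostly from Fscn1 and Ccr7, which some TEC also express; 5 of 9 were in the table, none passed, and their part in the level of Serpina3h was not tested.

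Serpina3f (104214544 to 104221129) was lower in rAREG, at 9.68, 6.86, 9.28, 12.7 and 6.32 CPM in replicates 1 to 5, against 15.1, 8.81, 15.8 and 23.6 CPM in vehicle replicates 1 to 4. Vehicle replicate 2 fell among the rAREG libraries and the other vehicle libraries lay above them. Its log2 fold change was −0.81 ± 0.279 (SE; edgeR, adjusted p = 0.178). The others differed little in fitted value: log2 fold changes were −0.07 ± 0.129 for Serpina3i, −0.01 ± 0.216 for Serpina3j and −0.08 ± 0.184 for Serpina3n (SE; edgeR, adjusted p of 0.865, 0.989 and 0.894).

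Reads of these paralogs can be hard to assign. Of all 50-base words in the last 400 bases of the Serpina3g transcripts, 19.7% also occur in transcripts of another gene, most often Serpina3h. The share was 3.49% for Serpina3h, 3.64% for Serpina3f and 0.57% for Serpina3i, and 0% for Serpina3j, Serpina3k and Serpina3n. The labels do not say how reads that match several genes were counted, so Serpina3f, Serpina3g and Serpina3h are uncertain as separate genes.

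The promoters of 4 of these neighbours are shown because the genes differed in level and in their fitted fold change. The sign was not settled for Serpina3i and Serpina3j, where it changed in fits that left out 1 library. Each line is the 250 bases before the start of the RefSeq gene (GRCm38.p6), 5′ to 3′ on the plus strand, with capitals for matches to the STAT binding motif GAS (TTCNNNGAA, which reads the same on both strands).
Serpina3f, chr12:104214294-104214543, plus strand: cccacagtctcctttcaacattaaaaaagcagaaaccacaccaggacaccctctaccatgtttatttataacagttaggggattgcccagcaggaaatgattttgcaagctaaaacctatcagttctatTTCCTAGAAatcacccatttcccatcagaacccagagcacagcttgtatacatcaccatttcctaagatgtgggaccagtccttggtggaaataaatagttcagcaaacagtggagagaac
Serpina3g, chr12:104235897-104236146, plus strand: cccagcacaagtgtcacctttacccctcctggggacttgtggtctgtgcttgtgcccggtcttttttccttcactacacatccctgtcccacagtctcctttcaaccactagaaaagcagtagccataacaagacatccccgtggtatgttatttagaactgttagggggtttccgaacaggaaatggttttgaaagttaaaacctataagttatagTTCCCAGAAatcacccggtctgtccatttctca
Serpina3i, chr12:104262872-104263121, plus strand: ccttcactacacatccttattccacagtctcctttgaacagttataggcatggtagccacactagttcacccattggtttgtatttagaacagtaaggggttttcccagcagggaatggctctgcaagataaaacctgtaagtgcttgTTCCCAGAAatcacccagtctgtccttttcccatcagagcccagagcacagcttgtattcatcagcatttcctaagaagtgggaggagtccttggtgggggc
Serpina3j, chr12:104314320-104314569, plus strand: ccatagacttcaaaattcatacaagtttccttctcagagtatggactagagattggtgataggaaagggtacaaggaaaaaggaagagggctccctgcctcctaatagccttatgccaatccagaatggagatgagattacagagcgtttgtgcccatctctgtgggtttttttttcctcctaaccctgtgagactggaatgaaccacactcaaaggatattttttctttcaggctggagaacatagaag

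The windows of Serpina3f, Serpina3g and Serpina3i each hold 1 match, whose first base lies 121, 33 and 102 bases before the start, and that of Serpina3j holds none. Those of Serpina3b and Serpina3n, which are not shown, also hold none. Of the 34 members with a promoter window 6 have a match, the other 3 being Serpina11, Serpinb2 and Serpinb6a, and the match is in 19.5% of the 41 member windows and 7.02% of all 32851 windows. These windows are not independent. Serpina3f and Serpina11 each enter with overlapping windows that hold the same match, and Serpina3f, Serpina3g and Serpina3i are paralogs. The interferon-stimulated response element core, which is GAAA, any pair of bases and GAAA, was searched on both strands and occurs in windows of Serpinb6a and Serpinb9, 4.88% of the member windows and 2.98% of all windows. A match is a description of the letters and not a bound site. Among all 11636 genes tested, 0.559% rose and 0.490% fell (edgeR, adjusted p under 0.05). Of 20 genes of the interferon response none rose and 5 fell at the same threshold: Gbp2, Ifit1, Ifit3, Cxcl10 and Irf1. Beside them, the interferon-inducible Serpina3g was at 0.21 ± 0.107, Serpina3f at −0.81 ± 0.279 and Serping1 at −0.62 ± 0.420 in log2 fold change (SE), without passing.

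Levels of the intracellular inhibitors of granule proteases were the highest of all roles and gave no call. Serpinb6a (chromosome 13, 33917918 to 34002794), whose human counterpart inhibits cathepsin G, was the most abundant member. It stood at 315, 265, 449, 376 and 314 CPM in rAREG replicates 1 to 5, against 367, 361, 354 and 347 CPM in vehicle replicates 1 to 4. The vehicle libraries agreed closely and lay within the range of the rAREG libraries. Its log2 fold change was −0.05 ± 0.125 (SE; edgeR, adjusted p = 0.899).

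Serpinb1a (chromosome 13, 32842092 to 32851185), an inhibitor of neutrophil elastase, cathepsin G and proteinase 3, was at 330, 316, 464, 399 and 281 CPM in rAREG replicates 1 to 5, against 376, 348, 373 and 229 CPM in vehicle replicates 1 to 4. The highest library was rAREG replicate 3, which was also the highest for Serpinb6a, and the lowest was vehicle replicate 4. The log2 fold change was 0.11 ± 0.165 (SE; edgeR, adjusted p = 0.831). Serpinb6b (chromosome 13, 32965209 to 32979067), a paralog of Serpinb6a, stood at 96.1, 76.5, 101, 96.1 and 104 CPM in rAREG replicates 1 to 5, against 81.5, 82.0, 93.6 and 62.8 CPM in vehicle replicates 1 to 4. All rAREG libraries but replicate 2 were above the vehicle libraries (log2 fold change 0.24 ± 0.126, SE; edgeR, adjusted p = 0.425). Serpinb9, the granzyme B inhibitor, averaged 22.8 ± 5.15 CPM in rAREG (SD, n = 5) and 19.8 ± 10.1 CPM in vehicle (SD, n = 4), and Serpinb8, an inhibitor of furin, 6.22 ± 2.43 CPM in rAREG and 6.42 ± 1.96 CPM in vehicle.

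RNA of the leukocyte granule proteases that these inhibitors meet was scarce in the sorted cells, and protein was not measured. Of 11 leukocyte granule proteases 8 were in the table, with summed levels of 37.5 to 74.8 CPM in rAREG and 24.7 to 53.8 CPM in vehicle. The 5 that were tested had positive log2 fold changes and none passed. The mast cell protease Mcpt4 had the highest mean over all 9 libraries, which its rAREG libraries set, since in vehicle it had the lowest mean of the 8. It was at 12.3, 5.27, 17.6, 28.5 and 13.7 CPM in rAREG replicates 1 to 5, against 1.51, 4.40, 4.30 and 0 CPM in vehicle replicates 1 to 4. The groups did not overlap, and the log2 fold change was 2.56 ± 0.608 (SE; edgeR, adjusted p = 0.0772). DESeq2 called it (adjusted p = 0.000474), as did edgeR without rAREG replicate 2 (adjusted p = 0.0435). Lysosomal cysteine proteases, which Serpina3g also inhibits, were more abundant, and none of 9 passed, with Ctsz at 334 ± 31.2 CPM in rAREG (SD, n = 5) and 305 ± 43.3 CPM in vehicle (SD, n = 4).

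Among inhibitors of clotting and plasminogen activation, 6 of 8 members were tested and had log2 fold changes of −0.09 to 0.27. Serpinb2 (chromosome 1, 107511423 to 107535478), plasminogen activator inhibitor 2, was at 196, 102, 151, 129 and 114 CPM in rAREG replicates 1 to 5, against 123, 120, 129 and 145 CPM in vehicle replicates 1 to 4. The rAREG libraries spread around the vehicle libraries (log2 fold change 0.09 ± 0.155, SE; edgeR, adjusted p = 0.856). Serpine2, the thrombin and urokinase inhibitor protease nexin 1, averaged 51.8 ± 16.5 CPM in rAREG (SD, n = 5) and 55.6 ± 4.88 CPM in vehicle (SD, n = 4). Antithrombin (Serpinc1) was at 19.2 ± 5.14 CPM in rAREG and 16.0 ± 3.51 CPM in vehicle, the protein Z-dependent inhibitor of factor Xa (Serpina10) at 10.6 ± 3.57 CPM in rAREG and 8.96 ± 2.63 CPM in vehicle, and neuroserpin (Serpini1) at 5.07 ± 3.31 CPM in rAREG and 4.75 ± 2.85 CPM in vehicle.

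Of the genes around these inhibitors, the trigger of clotting was lower in rAREG. Of 22 clotting and plasminogen genes 11 were tested. None of them rose and 1 fell, F3, which encodes tissue factor, where 0.490% of all genes tested fell. F3 stood at 98.1, 97.1, 92.3, 76.3 and 140 CPM in rAREG replicates 1 to 5, against 176, 140, 175 and 147 CPM in vehicle replicates 1 to 4. The highest rAREG library nearly reached the lowest vehicle library. Its log2 fold change was −0.67 ± 0.141 (SE; edgeR, adjusted p = 0.0293). The call was lost without rAREG replicates 1, 2, 3 or 4 or vehicle replicates 1, 2 or 3, with adjusted p up to 0.12 and log2 fold changes of −0.574 to −0.721, and with log2 total count as a covariate (−0.663, adjusted p = 0.0522).

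Of the 7 epithelial clade B members of the chromosome 1 cluster 3 were tested, and the other 4 averaged under 10 CPM and were below the filter. Serpinb12 averaged 66.9 ± 10.5 CPM in rAREG (SD, n = 5) and 60.5 ± 25.5 CPM in vehicle (SD, n = 4). Serpinb11 averaged 55.7 ± 32.3 CPM in rAREG and 53.6 ± 11.5 CPM in vehicle, with rAREG replicate 3 at 108 CPM and the other rAREG libraries at 29.0 to 63.9 CPM. Serpinb7, which keratinocytes express, was at 14.3 ± 4.32 CPM in rAREG and 8.97 ± 5.17 CPM in vehicle (log2 fold change 0.64 ± 0.347, SE; edgeR, adjusted p = 0.449).

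A pair of secreted clade A members had the highest fitted fold changes of the 26 tested members. Serpina9 (chromosome 12, 103994743 to 104013755), known in humans as a serpin of germinal centre B cells, was at 12.3, 19.0, 7.88, 9.16 and 14.2 CPM in rAREG replicates 1 to 5, against 7.04, 3.85, 7.64 and 8.41 CPM in vehicle replicates 1 to 4. Only rAREG replicate 3 fell within the range of the vehicle libraries. Its log2 fold change was 0.87 ± 0.307 (SE; edgeR, adjusted p = 0.188). The summed B cell markers, of which 3 of 6 were in the table, were at 33.4 to 44.5 CPM in rAREG and 27.2 to 36.8 CPM in vehicle, and their part in the level of Serpina9 was not tested. Serpina11 averaged 11.8 ± 5.13 CPM in rAREG (SD, n = 5) and 6.61 ± 5.43 CPM in vehicle (SD, n = 4), with 41.4% of its 3′-end words shared with Gm28577 (edgeR, adjusted p = 0.457).

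**Figure D5:**
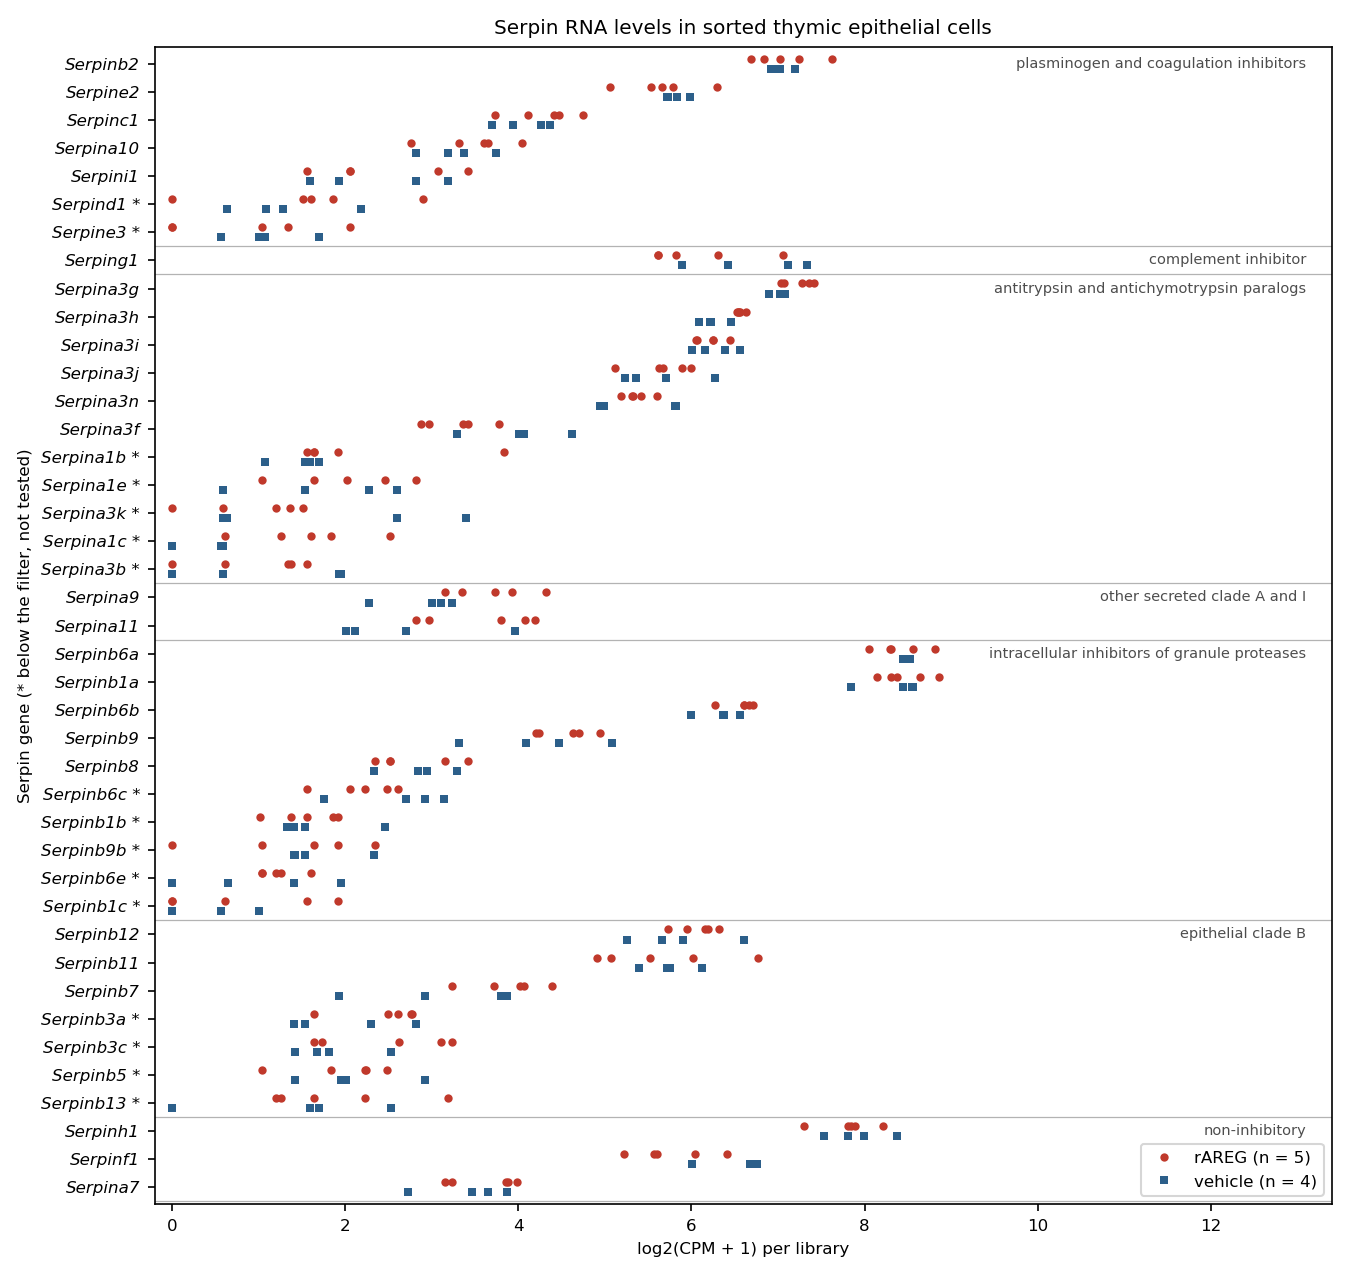
Level of 41 of the 42 serpin genes in each library as log2(CPM + 1), with 5 rAREG libraries (circles) above 4 vehicle libraries (squares) and genes ordered by role group and level. Serpinb6a and Serpinb1a have the highest levels, and the 16 genes marked with a star were below the filter and not tested.

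The other 16 members were below the filter, with 13 to 78 UMI counts over all 9 libraries, and 9 of them were at 0 in at least 1 library. A count of 0 allows a level of up to 1.39 to 1.94 CPM, depending on the library. They include the antitrypsin genes Serpina1b, Serpina1c and Serpina1e, the plasma inhibitor Serpind1 (heparin cofactor II), the epithelial genes Serpinb3a, Serpinb3c, Serpinb5 and Serpinb13, and Serpina3b, Serpina3k, Serpinb1b, Serpinb1c, Serpinb6c, Serpinb6e, Serpinb9b and Serpine3. Serpina1c, an antitrypsin paralog, had 4, 9, 3, 4 and 1 counts in rAREG replicates 1 to 5, against 1, 0, 1 and 0 in vehicle replicates 1 to 4. Of its 3′-end words 39.6% also occur in other genes, most often Serpina1a, which makes it uncertain as a single gene. Serpina3k had 2, 0, 4, 1 and 3 counts in the rAREG libraries, against 1, 1, 20 and 9 in the vehicle libraries. When all genes were fitted without a filter, none of the 16 passed (edgeR), with the smallest adjusted p at 0.185 for Serpina1c.

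Genes around the serpins gave few calls. Of 10 tested complement genes none passed, with C3 at 706 ± 129 CPM in rAREG (SD, n = 5) and 892 ± 219 CPM in vehicle (SD, n = 4), and their median log2 fold change was −0.35. Among receptors that clear serpin and protease complexes, none of 4 tested passed, and Lrp1 was at 79.7 ± 11.8 CPM in rAREG and 112 ± 18.5 CPM in vehicle (log2 fold change −0.49 ± 0.130, SE; edgeR, adjusted p = 0.0722). Other inhibitor families were more abundant than the serpins, with summed levels of 4948 to 5823 CPM in rAREG and 5206 to 5767 CPM in vehicle over 19 genes, and none of 13 tested passed. Cystatin C (Cst3) was at 1431 ± 191 CPM in rAREG and 1538 ± 198 CPM in vehicle. None of 7 membrane-anchored serine proteases passed, with Tmprss4 at 156 ± 16.6 CPM in rAREG and 125 ± 15.9 CPM in vehicle. Of 12 tested genes of the Aire stage of medullary TEC, 5 rose (Aire, Fezf2, Relb, Ccl17 and Ccl19) and none fell. Among all genes tested 0.559% rose and 0.490% fell. Of 11 cortical genes none passed.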

How the data were processed

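TEC were sorted into lysis buffer and sequenced by MARS-seq, per the labels' protocols, with groups taken from the sample titles. Tools named, with no roles, in the submitters' processing notes are STAR 2.5.2b, HTSeq, cutadapt, bcl2fastq and DESeq2, and the build is mm10. The authors deposited raw UMI counts, which all tests used. A normalised signal, also deposited by the authors, gave back whole numbers (100% of values, within 1e-06) equal to the raw counts when multiplied by size factors between 0.824 and 1.15, so the count test was not repeated on it. The deposited table also has log2 values (regularised) and the authors' own test, with p-values, of PBS over AREG.

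The tool for counts was edgeR 4.0.16 under R 4.3.3 (TMM, filterByExpr, robust quasi-likelihood F test, Benjamini-Hochberg over 11636 genes); SE is the log2 fold change divided by the square root of F. The biological coefficient of variation was 0.148. On simulated counts of rAREG versus vehicle over 11372 genes, edgeR found 25.4% of changes of 1.5-fold, 77.3% at 2-fold and 98.4% at 3-fold, and 7.91% of calls were false. Intervals and limits cover counting error only; chi-square per degree of freedom between libraries of a group was at least 2.71. Alternatives were DESeq2 1.42.0, limma 3.58.1 voom, other scalings and filters, replicate blocks, log2 total count as a covariate, and leaving out each library. The members, lists, role groups and tests were chosen with earlier results of these data known. Named in full were members with an unadjusted p under 0.05 and the 8 most abundant, and from each list the called genes or else the most abundant. Serping1's relation to fibroblast markers and Serpina1c, Serpina3k, Fscn1, Ccr7, Dcn, Col6a1, Col1a2, Col3a1, Pdgfra, Col1a1, Pdgfrb and Pi16 were chosen after their values were seen. Promoters are from RefSeq (GRCm38.p6; 34 of 42 members matched) and positions from GENCODE M21, where 42 of 42 matched. The values of 1 member are not reported here; it stays in the counts and sums.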

Additional observations from a re-analysis of the deposited data

Results flagged for a closer look

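In 5 of 84 groups of libraries (42 members in rAREG and in vehicle) 1 library stood far from the rest of its group, where chance gives about 1 in 20. Serpinf1 was at 63.5 CPM in vehicle replicate 3, well under the other vehicle libraries. Serpinb6b was at 76.5 CPM in rAREG replicate 2, the lowest of its group. Serpina1b was at 13.2 CPM in rAREG replicate 4, with the other rAREG libraries at or under 2.78 CPM. Serpinb1b was at 4.49 CPM in vehicle replicate 4 and Serpinb9b at 4.03 CPM in vehicle replicate 1, each the highest of its group. These levels are 8 counts each, against 3 or 4 counts in the other vehicle libraries. Serpina1b, Serpinb1b and Serpinb9b were all below the filter, and 23.1% of the 3′-end words of Serpina1b also occur in other genes.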

How the results depend on the processing

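The count of serpin members called was 0, and 1 with DESeq2 (Serpinf1), 2 with title numbers as a replicate block (Serpinf1, adjusted p = 0.00745, and Serping1, 0.0154), 0 with library numbers as a replicate block, and 0 to 1 when 1 library was left out (1, Serpinf1, without rAREG replicate 5). Same-numbered libraries correlated at −0.0258 to 0.266 in their deviations from the group means over 2000 genes, so the numbers are not taken as pairs; 3 of the 4 numbered libraries on each side correlated best with their own title number, a hint from the data and not the design. Among all genes 122 were called, 198 with DESeq2, 308 with the title block, 165 with the library block, and 18 to 230 when 1 library was left out (58, 28 and 54 without rAREG replicates 1, 2 and 4, and 18, 43 and 230 without vehicle replicates 1, 2 and 4). Of the protease, inhibitor and receptor genes 1 was called, 2 with DESeq2, 7 with the title block, 0 with log2 total count as a covariate, and 0 to 5 when 1 library was left out (0 without rAREG replicates 1, 3 or 4 or vehicle replicates 1, 2 or 3, 2 without rAREG replicate 5 and 5 without vehicle replicate 4). The cause of these shifts was not tested. Leaving out 1 library changed the sign of the log2 fold change for 15 of the 26 tested members, none of them called. Among the 11 members described in full these were 4, with ranges of −0.159 to 0.028 for Serpinb6a, −0.026 to 0.193 for Serpinb1a, −0.232 to 0.057 for Serpinh1 and −0.057 to 0.184 for Serpinb2. The difference of the summed serpin level was 1.95 CPM, 29.9 CPM with total counts only, and −49.7 to 69.0 CPM when 1 library was left out, all within the spread between libraries. Simulated libraries of this depth, spread and number recovered 25.4% of changes of 1.5-fold; the part of depth alone was not tested.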

Other observations

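Across the 9 libraries, 559 relations were computed among the 26 tested members and between them and the summed markers of 9 cell types. By Pearson's r on the log2 scale 1 passed adjustment, that of Serping1 with the fibroblast markers, and by both coefficients 0 passed. Serpina3h and the dendritic cell markers had r = 0.969 (two-sided exact permutation p = 0.000846, adjusted p = 0.236) and rho = 0.883 (adjusted p = 0.42), and r = 0.911 without vehicle replicates 1 and 3. Both were higher in every rAREG library than in any vehicle library, so this r includes the difference between the groups. Within vehicle the order of the libraries was the same for both. Within rAREG the marker sum was highest in replicate 1 and Serpina3h in replicate 5. Serpinb2 and Serpina10 had r = 0.841 (exact permutation p = 0.00331, adjusted p = 0.353) and rho = 0.8 (adjusted p = 0.535), and r = 0.614 without rAREG replicates 1 and 2. Serpinb1a and Serpinh1 had r = −0.869 (exact permutation p = 0.00343, adjusted p = 0.353) and rho = −0.617 (adjusted p = 0.652), and r = −0.585 without rAREG replicate 3 and vehicle replicate 4. These are the 4 relations with the smallest Pearson p, and the libraries share depth and cell mix across members.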
